A study of Rattus norvegicus with 35 samples.

Results

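The sterol high and sterol low livers are 10 and 10 of the 35 rat livers of this series, and they are the animals whose cholesterol synthesis transcripts lay farthest above and farthest below those of animals given the same dose. They were picked from measured values. Each array received a score, the mean log2 level of Sqle, Idi1, Fdft1 and Dhcr7, which are 4 enzymes of the pathway, and the mean score of its own dose group was subtracted. The 10 highest and the 10 lowest arrays on that scale form the classes, and the 15 arrays between them belong to neither. The scoring genes are left out of everything that follows, and the question is which other transcripts differed between rats along with them.

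The samples are livers of male Harlan Sprague Dawley rats, 7 weeks old when dosing began, that were gavaged for 5 days with corn oil at 5 ml/kg. The oil carried BTBPE, a brominated flame retardant, at 680, 68, 6.88, 0.69 or 0.07 mg/kg or, for the vehicle group, at 0 mg/kg, so every animal, controls included, received corn oil. All rats ate the same diet freely, and the left lobe was taken a day after the last dose. Each group has 6 arrays except 68 mg/kg with 5, and each array is counted as 1 rat. The hepatocyte markers matched the tissue label: the 7 measured ones had log2 levels from 11.46 to 14.39, against array medians of 4.71 to 4.79.

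Cholesterol is built from acetyl-CoA through mevalonate, the isoprenoid diphosphates, squalene and lanosterol, and the liver is one of its main sites of synthesis. The genes of the pathway are switched on together by the transcription factor SREBP-2, encoded by Srebf2, which is held in the endoplasmic reticulum by INSIG proteins when sterols are plentiful and is released to the nucleus when they are scarce. Its relative SREBP-1c, from Srebf1, drives fatty acid synthesis and responds to insulin and feeding. SREBP proteins activate promoters together with NF-Y, which binds CCAAT boxes, and SP1, which binds GC boxes.

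The score set each class as follows, as a description with no test. In the high livers it lay 0.15 to 0.43 log2 units above the dose group mean, with a median of 0.21. In the low livers it ran from -0.64 to -0.11 with a median of -0.27, so the mean scores differed by 0.55, or 1.46-fold. The upper boundary was narrow: the last high liver, vehicle replicate 1, and the next array, 68 mg/kg replicate 2, both stood at 0.15. At the lower boundary vehicle replicate 6 was in at -0.11, and 0.07 mg/kg replicate 5 was out at -0.06. The low class was uneven, since 5 livers lay between -0.64 and -0.37 and the other 5 between -0.17 and -0.11. Those 5 lowest are vehicle replicate 4, replicates 2 and 3 at 0.69 mg/kg, replicate 4 at 68 mg/kg and replicate 5 at 680 mg/kg.

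**Figure D1:**
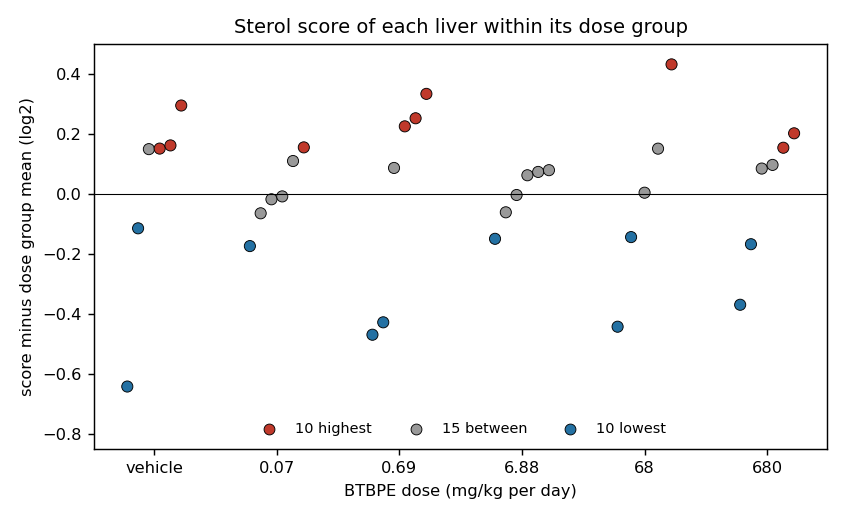
Score of each of the 35 livers minus the mean of its dose group (log2, vertical axis) by BTBPE dose (horizontal axis), 1 point per array, with the 10 highest in red, the 10 lowest in blue and the 15 between in grey. The 5 lowest livers, at -0.37 and below, come from vehicle, 0.69, 68 and 680 mg/kg, and the 6 livers at 6.88 mg/kg lie close together.

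Both classes were found in 5 of the 6 dose groups. Vehicle held 3 high and 2 low livers, 0.07 mg/kg held 1 and 1, 0.69 mg/kg held 3 and 2, 68 mg/kg held 1 and 2, and 680 mg/kg held 2 and 2. At 6.88 mg/kg there was 1 low liver and no high one. The SD of the score within a group was 0.34 in vehicle, 0.12 at 0.07, 0.36 at 0.69, 0.091 at 6.88, 0.33 at 68 and 0.22 at 680 mg/kg. Single low livers carried much of it in 3 groups: the SD was 0.15 in vehicle without replicate 4, 0.061 at 6.88 mg/kg without replicate 5 and 0.14 at 680 mg/kg without replicate 5. Group means of the score ran from 9.96 to 10.13.

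Across the 31036 other probe sets, 54 (0.174%) differed between high and low livers at an adjusted p under 0.05 in limma's moderated test with dose group in the model, 51 of them (0.164%) higher and 3 (0.00967%) lower in the high livers. With each gene represented by its brightest probe set, 33 of 14213 genes (0.232%) passed, 31 higher (0.218%) and 2 lower (0.0141%). At an unadjusted p under 0.05 there were 1351 genes (9.51%), 858 of them higher (6.04%), which is the background for such counts in the lists that follow. Of the 31 genes that rose, 13 belong to the sterol synthesis list and 5 to the list of fatty acid and triglyceride synthesis. Because the classes were cut from measured values of pathway neighbours, this is a test of what varied with the score from rat to rat, not of a treatment. It rests in part on the 5 lowest livers: without them 5 probe sets were called. All 33 genes kept their sign in that fit, and 3 of them, Lss, Mvd and the co-chaperone gene Stip1, still passed.

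**Figure D2:**
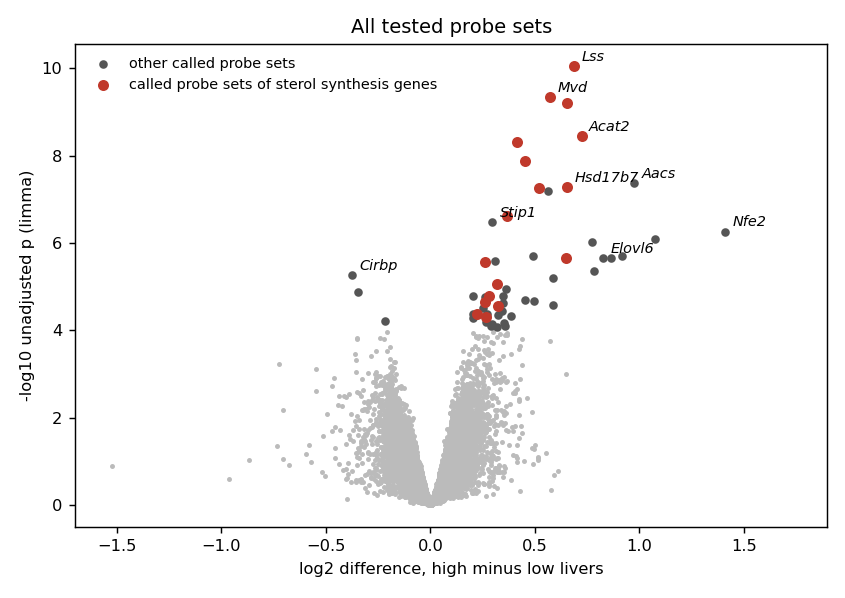
Difference between high and low livers (log2, horizontal axis) against the -log10 unadjusted p of limma's moderated test (vertical axis) for all 31036 probe sets, with called probe sets of sterol synthesis genes in red and other called ones in dark grey. Most called probe sets lie on the right, and Nfe2 has the largest difference among them.

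The sterol synthesis list covers 18 enzymes and helpers besides the scoring genes, and 15 of them are analysed here. All 15 had a difference above 0, against 50.2% of all genes, and 13 were called higher, against the background of 0.218% given above. The median difference of the list was 0.33 (1.26-fold), and the median of all genes was 0.000405. In the mean over the list, high livers lay 0.09 to 0.32 above their dose group means and low livers 0.06 to 0.47 below them. For 6 members (Acat2, Mvd, Lss, Cyp51, Msmo1 and Hsd17b7) no low liver reached the lowest high liver, and such separation was seen in 9 of 14213 genes (0.0633%). The list was written with earlier results of these data known, so its count is a description of the pathway and not an independent test of it.

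Promoter sequences of 4 members are printed because the pathway moved together and NF-Y boxes are part of its known control. These 4 were chosen for holding the most CCAAT boxes among the members, 3 or more each. They are RefSeq windows on assembly GRCr8 that reach from 250 bases before to 50 bases after the annotated start, written 5′ to 3′ on the strand of the gene. Capitals mark each CCAAT and its reverse complement ATTGG.
Mvk, chr12:47819454-47819753, minus strand: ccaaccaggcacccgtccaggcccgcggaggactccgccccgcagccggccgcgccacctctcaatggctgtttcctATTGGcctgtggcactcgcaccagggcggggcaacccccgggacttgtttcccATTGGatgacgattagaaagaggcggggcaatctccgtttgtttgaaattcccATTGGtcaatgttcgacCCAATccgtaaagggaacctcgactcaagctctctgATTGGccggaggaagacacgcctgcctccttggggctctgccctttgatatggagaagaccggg
Nsdhl, chrX:155817110-155817409, plus strand: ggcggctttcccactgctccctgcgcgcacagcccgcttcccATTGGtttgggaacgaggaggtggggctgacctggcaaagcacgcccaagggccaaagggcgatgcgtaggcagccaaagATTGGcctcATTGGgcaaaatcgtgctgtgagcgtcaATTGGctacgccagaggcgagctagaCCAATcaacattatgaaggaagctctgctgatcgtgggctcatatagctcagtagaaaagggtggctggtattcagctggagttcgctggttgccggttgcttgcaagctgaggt
Msmo1, chr16:29746863-29747162, plus strand: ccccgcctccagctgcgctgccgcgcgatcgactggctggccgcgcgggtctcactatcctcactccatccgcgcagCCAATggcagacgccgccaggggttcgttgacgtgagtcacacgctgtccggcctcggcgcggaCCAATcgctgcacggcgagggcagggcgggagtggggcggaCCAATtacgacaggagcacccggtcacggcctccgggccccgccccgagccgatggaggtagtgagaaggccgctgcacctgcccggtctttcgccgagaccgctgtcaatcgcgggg
Hsd17b7, chr13:84722705-84723004, minus strand: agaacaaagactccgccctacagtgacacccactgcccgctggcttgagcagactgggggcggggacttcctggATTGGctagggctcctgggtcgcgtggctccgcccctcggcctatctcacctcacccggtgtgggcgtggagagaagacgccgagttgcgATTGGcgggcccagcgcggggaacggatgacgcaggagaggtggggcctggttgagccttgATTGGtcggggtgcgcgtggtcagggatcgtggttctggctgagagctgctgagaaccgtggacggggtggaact

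The windows of Mvk and Nsdhl each held 5 CCAAT boxes, 4 of them on the opposite strand. Msmo1 had 3 on its own strand, and Hsd17b7 had 3 on the opposite strand. Of the 15 measured members, 14 had a window (Pmvk had none), and 11 of these 14 (78.6%) held CCAAT on either strand. Acat2, Cyp51 and Erg28 held 0. The share was 38.3% among 8138 windows of measured genes with a level at or above the lowest array median, and 37.7% among all 27457 windows. GGGCGG, the core of a GC box, stood in 13 of 14 (92.9%) against 63.1% and 34.9%. The form TCACNCCAC of the sterol regulatory element was in 0 of 14 windows, against 1.14% and 1.13%; these letters are one spelling of a variable element. Among 15 windows of the other genes called higher, 7 (46.7%) held CCAAT and 11 (73.3%) held GGGCGG. Both genes called lower held CCAAT too, Cirbp 2 and Tmem218 3. A match describes letters in a window, and no binding was measured.

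Enzymes of the early steps, from acetyl-CoA through mevalonate to the isoprenoid diphosphates, rose in the high livers. Acat2, the cytosolic thiolase that joins acetyl-CoA units at the entry, had deviations from the dose group mean of 0.05 to 0.65 in high livers (median 0.25) and of -0.94 to -0.09 in low livers (median -0.41). The classes did not overlap on that scale. Its log2 level was 9.47 ± 0.22 in high and 8.73 ± 0.23 in low livers (SD, n = 10 each), a 1.65-fold difference (95% interval 1.46 to 1.88) with a limma adjusted p of 2.76e-05.

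Mvd, mevalonate diphosphate decarboxylase, deviated by 0.07 to 0.49 in high livers (median 0.23) and by -0.66 to -0.04 in low ones (median -0.34). Here too every high liver exceeded every low liver. The fitted fold was 1.49 (1.36 to 1.63), limma adjusted p = 6.23e-06. Mvk, mevalonate kinase, was 1.29-fold higher (1.19 to 1.40), Pmvk, phosphomevalonate kinase, 1.25-fold (1.15 to 1.36), and Fdps, farnesyl diphosphate synthase, 1.22-fold (1.12 to 1.32), with limma adjusted p of 6.78e-04, 0.0102 and 0.0167. Mvk had 2 other probe sets, neither of them called, with log2 differences of 0.03 and 0.30. The Fdps call was lost without 0.69 mg/kg replicate 2 (adjusted p 0.0659) or without 68 mg/kg replicate 1 (0.0638).

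In the steps that close and trim the sterol ring, Lss showed the smallest p of all probe sets tested. Lss, lanosterol synthase, folds the squalene epoxide into the first sterol. It deviated by 0.13 to 0.41 in high livers, with a median of 0.35. Low livers ran from -0.94 to -0.11 with a median of -0.31, again without overlap. The log2 level was 9.60 ± 0.10 in high and 8.90 ± 0.22 in low livers (SD, n = 10 each), which gives 1.61-fold (1.45 to 1.79) and a limma adjusted p of 2.71e-06. Its other probe set was called too.

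Cyp51, the lanosterol demethylase, deviated by 0.03 to 0.32 in high livers (median 0.15) and by -0.51 to -0.02 in low livers (median -0.25). Fold and interval were 1.33 (1.24 to 1.44), limma adjusted p = 2.94e-05. The oxidase Msmo1, the dehydrogenase Nsdhl and the ketoreductase Hsd17b7 then strip methyl groups from the ring, held together by the scaffold Erg28. Hsd17b7 had the largest fold of these: 0.11 to 0.52 in high livers (median 0.33) and -0.83 to 0.06 in low ones (median -0.35), or 1.57-fold (1.38 to 1.80, limma adjusted p = 1.87e-04). Msmo1 was 1.44-fold higher (1.29 to 1.59, 1.87e-04), Nsdhl 1.25-fold (1.14 to 1.38, 0.0224) and Erg28 1.20-fold (1.12 to 1.28, 0.00391).

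Of the late enzymes, the isomerase Ebp was 1.20-fold higher (1.11 to 1.29, limma adjusted p = 0.0198) and the desaturase Sc5d 1.17-fold (1.09 to 1.25, 0.0307). Tm7sf2 and Lbr, which reduce the ring double bond that Cyp51 leaves earlier in the pathway, both missed the threshold. Tm7sf2 stood at 1.26-fold (1.11 to 1.41, 0.139) with overlapping classes, -0.30 to 0.44 in high and -0.51 to 0.08 in low livers. Lbr stood at 1.08-fold (0.979 to 1.18, 0.712), and its log2 level of 4.69 is below every array median. Single arrays decided the weaker calls: Nsdhl missed the threshold without any of 7 arrays (adjusted p up to 0.0891), Sc5d without any of 9 (up to 0.113) and Ebp without any of 5 (up to 0.0791), while Acat2, Mvk, Pmvk, Mvd, Lss, Cyp51, Msmo1, Hsd17b7 and Erg28 passed in all 35 fits that left out 1 array.

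**Figure D3:**
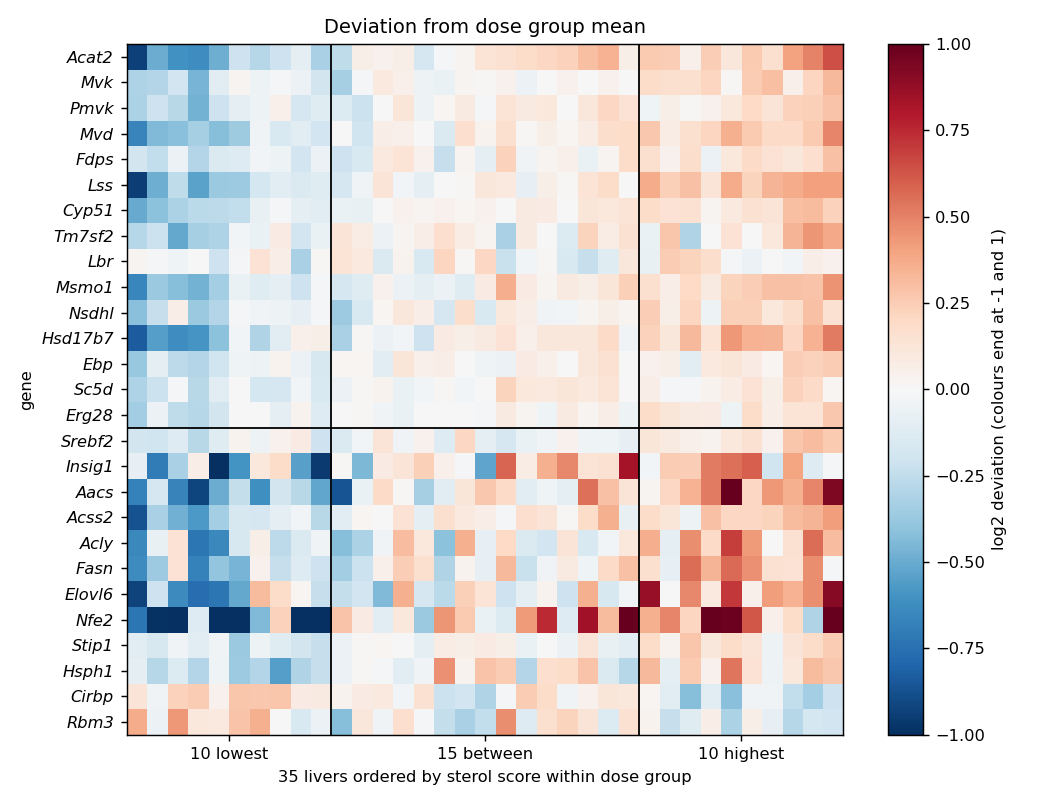
Log2 deviation from the dose group mean (colour) of 15 sterol synthesis genes and 12 others (vertical axis) in the 35 livers ordered by score (horizontal axis), with black lines between the 10 lowest, the 15 between and the 10 highest. The sterol genes are blue in the lowest 5 livers and red in the highest ones, and Cirbp runs the other way.

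The same direction was seen inside the dose groups. This is a description and no independent support, since the classes were cut from deviations within those groups. At 0.07 mg/kg it compares 1 high with 1 low liver. The counts of positive differences and slopes below have no share over all genes beside them. In the 5 groups that held both classes, the mean of high minus low livers was positive in 72 of 75 values over the 15 members, and 12 members were positive in all 5 groups. For Lss these differences were 0.82 in vehicle, 0.65 at 0.07, 0.84 at 0.69, 0.61 at 68 and 0.58 at 680 mg/kg. For Mvd they were 0.65, 0.51, 0.62, 0.75 and 0.45 in the same order. Slopes on the continuous score were above 0 for 14 members in vehicle livers and for 15 in dosed livers. No probe set had a slope that differed between dosed and vehicle rats in limma's interaction test (0 called at an adjusted p under 0.05, smallest adjusted p 0.242, 1253 at an unadjusted p under 0.05). With 6 vehicle arrays that test is coarse, and it does not show that the slopes are alike.

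When the score was taken as a continuous term over all 35 livers, 58 probe sets (0.187%) and 31 genes (0.218%) were called, of which 39 probe sets and 23 genes had also been called between the classes. Sterol synthesis then counted 14 of 15 members, with Tm7sf2 added (adjusted p 0.00332). The 15 middle livers, which enter neither class, gave a slope above 0 for 12 of 15 members, against 53.2% of all genes. Their median slope was 0.95 log2 units per unit of score and that of all genes 0.05. None of the members passed the adjusted threshold there, 4 (Acat2, Pmvk, Mvd and Msmo1) had an unadjusted p under 0.05, and limma called 0 probe sets (1435 had an unadjusted p under 0.05).

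RNA quality moved somewhat with the classes. The difference between the 3′ and 5′ control probe sets of Actb, which grows as RNA degrades, was 1.05 to 1.28 in high livers (median 1.21) and 1.02 to 1.31 in low livers (median 1.10). With this difference as a covariate, 23 probe sets were called in place of 54, and 8 of 15 sterol genes in place of 13. Acat2, Mvk, Mvd, Lss, Cyp51, Msmo1, Hsd17b7 and Erg28 were those that still passed, Lss at 1.56-fold and Acat2 at 1.61-fold. The folds of the 5 that no longer passed were 1.21 for Pmvk, 1.19 for Fdps and for Nsdhl, 1.18 for Ebp and 1.17 for Sc5d. Each array correlated with its own dose group at 0.995 to 0.998, and the classes covered the same range.

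In the list of sterol sensing and SREBP control 14 of 18 genes were measured, 1 was called, 10 lay above 0 and the median difference was 0.03. The called gene was Srebf2 itself. It deviated by 0.04 to 0.31 in high livers (median 0.11) and by -0.27 to 0.08 in low ones (median -0.13), and 2 low livers reached the high range. The fold was 1.20 (1.11 to 1.29), limma adjusted p = 0.0170. The call was lost without vehicle replicate 6 (adjusted p 0.0524), 0.69 mg/kg replicate 2 (0.0716) or 68 mg/kg replicate 1 (0.0599), and with the Actb covariate (0.206). That covariate was among 9 of 21 alternative settings in which the call was lost. The other Srebf2 probe set differed by only 0.026 and was not called.

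Srebf1 stood at 1.01-fold (0.851 to 1.19, limma adjusted p = 0.992), and its classes covered nearly the same range, -0.36 to 0.27 and -0.38 to 0.37. Insig1, the SREBP retention gene that is itself an SREBP target, was 1.57-fold (1.22 to 2.02) but did not pass (0.205). Its low livers were scattered from -1.45 to 0.18 and its high livers from -0.20 to 0.60. Insig2, the other retention gene, was at 0.882-fold (0.803 to 0.968, 0.403).

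Cholesterol uptake and transport had 12 of 18 listed genes analysed here. None passed limma's adjusted threshold, 3 had an unadjusted p under 0.05 and 8 lay above 0 (median 0.04). Tmem97, a sterol-regulated partner of lysosomal cholesterol export, stood at 1.25-fold (1.12 to 1.39, adjusted p = 0.0665) and was called in 8 of 21 alternative settings. Stard4, a cytosolic sterol carrier, stood at 1.24-fold (1.06 to 1.46, 0.400). For each of these 2 genes another, dimmer probe set was called higher (adjusted p 0.0413 and 0.0428).

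The efflux list had 11 genes measured and 0 called by limma, with 0 at an unadjusted p under 0.05 as well. Abca1, which loads cholesterol onto lipoprotein particles, stood at 1.25-fold (0.899 to 1.75, adjusted p = 0.754), and the sterol export pair Abcg5 and Abcg8 at 1.14-fold (0.862 to 1.51) and 1.17-fold (0.863 to 1.59). In bile acid synthesis and transport 18 genes were measured, 0 passed limma's adjusted threshold and 5 had an unadjusted p under 0.05. Cyp7a1, the rate-limiting enzyme of bile acid synthesis, varied widely in both classes, from -0.58 to 1.09 in high and from -1.36 to 0.74 in low livers. Its fold of 1.47 had an interval of 0.976 to 2.20 (adjusted p = 0.629). Cyp8b1, which sets the cholic acid share, stood at 1.33-fold (1.12 to 1.59, 0.260). The isoprenoid branches outside sterols had 13 genes measured and 0 called by limma, with 2 at an unadjusted p under 0.05.

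Fatty acid and triglyceride synthesis had all 22 listed genes measured: 5 were called higher, 20 lay above 0, and the median difference was 0.12. The called genes were Aacs, Acss2, Elovl6, Fasn and Acly. Aacs, the cytosolic synthetase that turns the ketone body acetoacetate into a lipid precursor, deviated by 0.02 to 1.10 in high livers (median 0.39) and by -0.92 to -0.17 in low livers (median -0.51). The classes did not overlap. Log2 levels were 7.44 ± 0.31 and 6.45 ± 0.27 (SD, n = 10 each), a 1.97-fold difference (1.62 to 2.39, limma adjusted p = 1.87e-04).

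Acss2, which makes acetyl-CoA from acetate, deviated by -0.05 to 0.41 in high and by -0.87 to -0.02 in low livers, and 1 low liver reached the high range. It was 1.48-fold higher (1.32 to 1.66, limma adjusted p = 2.03e-04). Elovl6, the elongase of saturated fatty acids, was 1.77-fold higher (1.45 to 2.17, 0.00350), with high livers from -0.01 to 0.91 and low livers from -0.92 to 0.32. Fasn, fatty acid synthase, was 1.50-fold higher (1.29 to 1.75, 0.00768). Acly, which releases acetyl-CoA from citrate, was 1.50-fold higher (1.27 to 1.78, 0.0217), and its call was lost without any of 6 single arrays (adjusted p up to 0.0891). With the Actb covariate only Aacs and Acss2 of these 5 passed, and without the 5 lowest livers none did (Aacs 1.87-fold, adjusted p 0.0660).

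Other members of that list did not pass. Acaca, the carboxylase of the committed step, stood at 1.20-fold (1.06 to 1.35, limma adjusted p = 0.329), the malic enzyme gene Me1 at 1.24-fold (1.09 to 1.41, 0.232) and the phosphatidate phosphatase gene Lpin1 at 1.34-fold (1.16 to 1.56, 0.0994). Lpin1 was called in 6 of 21 alternative settings, and another, dimmer probe set of it was called higher (adjusted p 0.0470). The desaturase genes Fads1 and Fads2 stood at 1.08-fold and 1.05-fold. Scd, the stearoyl-CoA desaturase, was at 0.820-fold with an interval of 0.582 to 1.16, and Thrsp, a lipogenic regulator, at 1.22-fold (0.908 to 1.64).

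**Figure D4:**
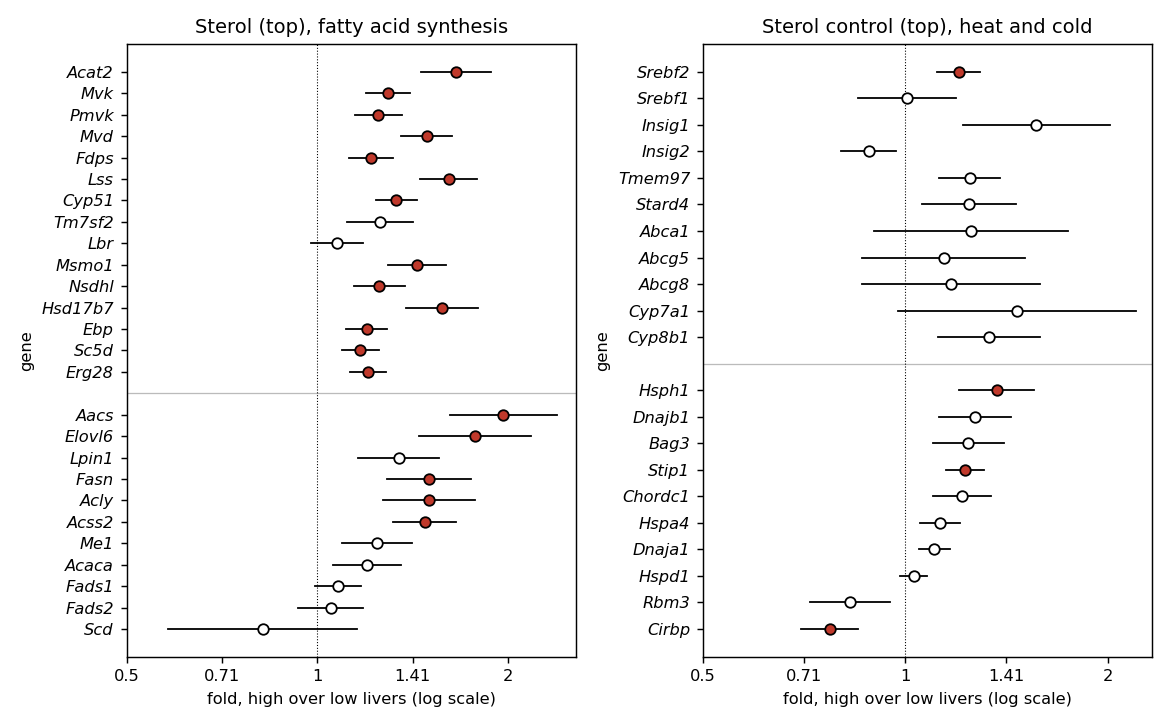
Fold of high over low livers with its 95% interval (horizontal axis, log scale) for genes (vertical axis) of sterol and fatty acid synthesis on the left, and on the right of sterol control, transport and bile acids above heat and cold responsive genes, filled where the limma adjusted p is under 0.05. Sterol enzymes lie between 1.08 and 1.65, Srebf1 lies at 1.01, and Cirbp lies at 0.772.

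The transcript with the largest called difference was outside lipid synthesis. Nfe2, a transcription factor best known from platelet and red cell precursors, deviated by -0.30 to 1.46 in high livers (median 0.42) and by -1.59 to 0.23 in low livers (median -1.04), and 2 low livers reached the high range. Log2 levels were 6.81 ± 0.52 and 5.30 ± 0.66 (SD, n = 10 each), or 2.66-fold (1.93 to 3.66, limma adjusted p = 0.00132). High minus low was positive in all 5 dose groups with both classes, from 0.68 at 0.69 mg/kg to 2.42 at 68 mg/kg. The blood and neutrophil markers did not move with it: 0 of 8 were called (0 at an unadjusted p under 0.05) with 4 above 0, and their mean ranged from -0.14 to 0.20 in high and from -0.12 to 0.23 in low livers.

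Stip1 and Hsph1 were called higher among chaperone genes, Stip1 being named after its value was seen. Stip1, a co-chaperone that links the major heat shock chaperones, deviated by -0.05 to 0.27 (median 0.16) in high and by -0.37 to -0.04 (median -0.12) in low livers, or 1.23-fold (1.15 to 1.31, limma adjusted p = 8.74e-04). Hsph1, a large heat shock chaperone, ran from -0.10 to 0.54 in high and from -0.55 to -0.04 in low livers, 1.37-fold (1.20 to 1.55, 0.0186). Its call was lost without 0.07 mg/kg replicate 1 (adjusted p 0.0534), 0.69 mg/kg replicate 2 (0.0539) or 680 mg/kg replicate 2 (0.0683).

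Of the 13 measured heat shock genes, 1 (Hsph1) was called, 12 lay above 0, 8 had an unadjusted p under 0.05 and the median difference was 0.14. The mean over that list was 0.00 to 0.26 in high livers and -0.17 to -0.01 in low livers. Dnajb1 stood at 1.27-fold (1.12 to 1.44, limma adjusted p = 0.121), Bag3 at 1.24-fold (1.10 to 1.40, 0.205) and the mitochondrial chaperonin gene Hspd1 at 1.03-fold (0.984 to 1.08, 0.776). Hspa1a was not called, and its limma adjusted p was 0.799 to 0.975 when single arrays were left out. Hspa1b, Hspa8 and Hsp90aa1 of the list were not analysed here. Cirbp, a cold-inducible RNA-binding protein, fell: high livers lay between -0.42 and 0.02 and low livers between -0.03 and 0.28, or 0.772-fold (0.700 to 0.851, 0.00716). Rbm3, its cold-inducible relative, stood at 0.828-fold (0.721 to 0.950, 0.392). On the continuous score Hsph1, Stip1 and Cirbp were not called (adjusted p 0.303, 0.114 and 0.281).

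**Figure D5:**
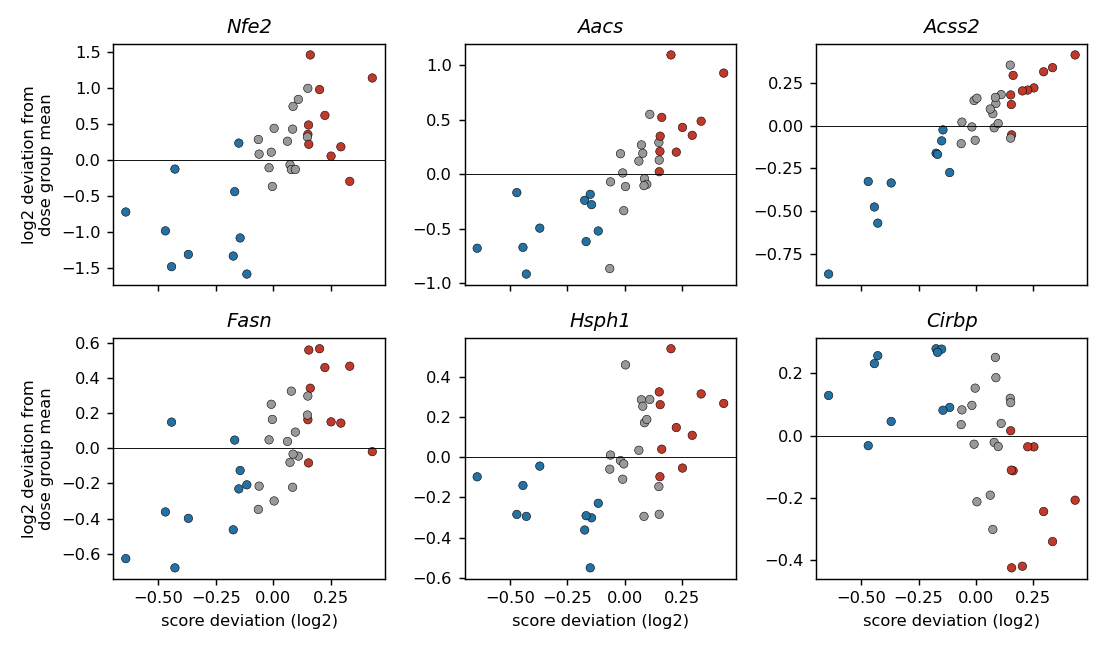
Log2 deviation from the dose group mean (vertical axes) of 6 genes against the score deviation (log2, horizontal axis) in 35 livers, with the 10 high livers in red, the 10 low in blue and the 15 between in grey. The high and low livers separate for Aacs, 1 low liver reaches the high range for Acss2, and the livers between the classes spread widely for Hsph1 and Cirbp.

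The remaining called genes are named after their values were seen, except Abcc4 and Tmem218, which the naming rule selected. Abcc4, an efflux transporter of organic anions and the called member of 19 measured NRF2 targets, was 1.30-fold higher (1.16 to 1.46, limma adjusted p = 0.0323). Of those 19 targets, 15 lay above 0 and 4 below (median 0.07). At an unadjusted p under 0.05, 6 of the 19 were higher, against 6.04% of all genes. Tmem218 was 0.860-fold (0.805 to 0.920, 0.0399). Tmem254 (1.15-fold), Cyb5b, a cytochrome of the outer mitochondrial membrane (1.19-fold), and Pank3, a kinase of coenzyme A synthesis (1.20-fold), were higher. So were Pip4p1, a lipid phosphatase (1.22-fold), Clcn6, a chloride transporter (1.25-fold), Eid2 (1.25-fold), Creb1, a transcription factor (1.15-fold), and Egln1, an oxygen-sensing hydroxylase (1.15-fold). For Creb1 and Egln1 another probe set differed in the opposite direction. Each of these 10 calls was lost without at least 1 array: 1 for Egln1 (vehicle replicate 6, adjusted p 0.0615), and from 6 to 26 for the others, with adjusted p of at most 0.157.

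Transcripts that follow feeding and fasting did not pass. Among 13 insulin and feeding responsive genes 0 were called by limma (1 at an unadjusted p under 0.05), and among 18 fasting and gluconeogenesis genes 0 were called (0 at an unadjusted p under 0.05), with 12 below 0. Igfbp1, an insulin-repressed gene, ran from -2.41 to 0.66 in high and from -0.43 to 1.05 in low livers, 0.672-fold (0.416 to 1.09, adjusted p = 0.690). Pck1, of gluconeogenesis, stood at 0.859-fold (0.677 to 1.09, 0.776). The intervals are wide enough to hold sizeable differences in either gene. Limma also called 0 of 28 PPAR-alpha genes (0 at an unadjusted p under 0.05), 0 of 18 clock genes (0), 0 of 20 CAR and PXR targets (3) and 0 of 23 interferon response genes (1). Of the interferon response genes 20 lay below 0 (median -0.09), and of the clock genes 14 did (median -0.05). The PPAR-alpha genes had 15 below 0 (median -0.01), and the CAR and PXR targets had 14 above 0 (median 0.03).

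Markers of other cell types were not called either, with 0 calls by limma in each of the 12 lists of liver cell types, blood and neighbouring organs. Several leaned one way. Kupffer cell and macrophage markers lay below 0 in 14 of 15 (median -0.11, 1 at an unadjusted p under 0.05), and their mean spanned -0.61 to 0.22 in high and -0.46 to 0.28 in low livers. Stellate cell and fibroblast markers lay below 0 in 15 of 18 (median -0.10, 1 at an unadjusted p under 0.05), from -0.12 to 0.04 in high and from -0.08 to 0.34 in low livers. Endothelial markers lay below 0 in 13 of 16 (median -0.06, 2), and periportal hepatocyte markers in 9 of 12 (median -0.02, 0). Leaning the other way, cholangiocyte markers lay above 0 in 7 of 8 (median 0.05, 0) and pericentral hepatocyte markers in 9 of 11 (median 0.02, 0). Hepatocyte markers had 3 of 7 above 0 and a median of -0.01. In whole-liver RNA, fewer cells of a type and less RNA per cell cannot be told apart, and the part of these markers in the sterol difference was not tested.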

How the data were processed

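Rat liver RNA was hybridised to 35 rat expression arrays, each counted as 1 rat, and samples were grouped by the dose in their labels. The authors deposited log2 expression values per probe set, made with RMA and affy per the submitters' processing notes. The version of either tool is not given in the sources used here, and the log base follows RMA's convention. Values ran from 1.45 to 14.44. RMA equalises array distributions and compresses differences of dim probe sets, and no further normalisation was applied.

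Of 31099 probe sets, 57 controls and 6 of the scoring genes were left out. Among the probe sets other than controls, the platform annotation gave 1 symbol to 20826, several to 436 and none to 9780, and 20758 of the first kind matched RefSeq. A gene was represented by its brightest probe set. The model in limma 3.58.1 (R 4.3.3) had dose group and class as terms over all 35 arrays, with Benjamini-Hochberg adjustment over 31036 probe sets and a threshold of 0.05. Intervals are 95% intervals of the fit for single genes. The script was tested on simulated data. The series design names R/maanova, which was not used here. Labels do not tie each array to an animal, so the p-values rest on taking each array as an independent rat. They set a difference against the spread between arrays that remains after dose group and class, and the number of arrays limits precision.

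Members and all 36 gene lists were chosen with earlier results of these data known. Genes were named as follows: every measured sterol synthesis gene, up to 15 called genes in each direction with the largest difference and a mean at or above the lowest array median, up to 4 called members of each other list, and Insig1, Srebf1, Srebf2, Cyp7a1, Fasn, Abca1 and Abcg8. Other called genes and other members of lists were named after their values were seen. Alternatives changed the class size, score, arrays, normalisation, filters, covariates and fit, and left out each array in turn. Those concerning the 5 lowest and the 15 middle livers were chosen after seeing the data. Replicate numbers did not pair samples: deviations of the 85 same-numbered pairs had a mean correlation of -0.0089, against 0.0018 for 425 other pairs.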

Additional observations from a re-analysis of the deposited data

Results flagged for a closer look

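Among 134 sets of values tested with Dixon's criterion, 7 held a sample far from the others, and chance gives about 1 in 20. The Actb 3′ minus 5′ difference was 1.31 in the low liver 6.88 mg/kg replicate 5, next to 1.15. Lss deviated by -0.94 in the low liver vehicle replicate 4, next to -0.54; without that array the Lss call stood. In the high liver 0.07 mg/kg replicate 1 the sterol export genes Abcg5 and Abcg8 deviated by -1.002 and -0.987, next to -0.12 and -0.14. Abcg5 also deviated by -0.89 in the low liver vehicle replicate 4, next to -0.29. In the high liver 680 mg/kg replicate 2 Igfbp1 deviated by -2.41, next to -0.97, and Pck1 by -1.41, next to -0.34.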

How the results depend on the processing

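The call count of 54 probe sets, with 13 sterol, 5 fatty acid and 0 uptake genes, changed most where the lowest livers were not in the fit. Without the 5 lowest, 5 probe sets, 2 sterol and 0 fatty acid genes were called, and the slope in the 15 middle livers called 0, 0 and 0; there Ebp (-0.062), Tmem218 (0.18) and Creb1 (-0.19) changed sign. The cause was not tested, though both settings hold fewer arrays and less spread in score. With the Actb covariate 23 probe sets, 8 sterol and 2 fatty acid genes were called. With only the 20 classed arrays there were 29 probe sets and 3 fatty acid genes, and the score without Idi1 gave 3 fatty acid genes. The replicate block gave 30 probe sets and 10 sterol genes. The uptake count was 1 with 12 livers a class, the continuous score, deviations, no dose term, the score without Sqle or Fdft1, the filter on dim probe sets, or array weights. Leaving out single arrays gave 29 to 67 probe sets, 9 to 13 sterol, 4 to 7 fatty acid and 0 to 1 uptake genes; 29 came without 0.69 mg/kg replicate 2 and 31 without 680 mg/kg replicate 2. The interaction count was 0 in every setting tried. Of 33 called genes 16 passed in all 35 leave-outs. Lss and Mvd passed in every setting except the slope in the middle livers. The dimness of a probe set limits what a difference can show, since RMA compresses low signals.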
